A study of Mus musculus with 18 samples.

Results

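Excitation-contraction coupling is carried out by proteins of the triad, the junction between the transverse tubule and the sarcoplasmic reticulum of a muscle fibre, and 38 genes of this system and of general calcium handling were followed in differentiating mouse muscle stem cells (MuSCs). The 38 genes were chosen by symbol from 20612 genes in the expression table, all 38 were found there, and all 38 were among the 11890 genes tested. The donors were semi-cloned mice 4 months old, made by injecting a haploid embryonic stem cell into an oocyte in the role of a sperm. In the DSM-TKO mutant (TKO) 1 copy each of Dmpk, Six5 and Mbnl1 is mutated. The DSMD-QKO mutant (QKO) carries a mutated copy of Dmwd as well. They were compared with wild-type (WT) semi-cloned mice. The strain label was C57BL/6 for all samples, oocyte donors were B6D2F1 females, and the haploid cells behind all 3 genotypes, WT included, lack the H19 and IG imprinting control regions. Each genotype was sampled at day 0 (after growth in T cell conditional medium) and at days 1 and 2 after the change to differentiation medium, with 2 libraries in each of the 9 groups. The haploid cells were edited and picked as single-cell clones, and the labels do not say whether the libraries of a group came from separate mice or cultures, so the spread between them may be technical.

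In a muscle fibre, the voltage sensor of the transverse tubule (Cacna1s with its accessory subunits and Stac3) opens the ryanodine receptor Ryr1 of the sarcoplasmic reticulum, calcium flows out onto the myofilaments, and the SERCA pumps (Atp2a1 and Atp2a2) return it to the store, where calsequestrins (Casq1 and Casq2) hold it. Undifferentiated myoblasts use mainly inositol trisphosphate receptors (Itpr genes) and store-operated entry for calcium signals, and the triad is assembled as they become myotubes. Myotonic dystrophy, which the mutants model, is known for altered splicing of Atp2a1, Ryr1, Cacna1s and Bin1 transcripts, which RPKM per gene cannot show. RPKM is a read number scaled to transcript length in kilobases and to library depth, so levels can be compared between genes.

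The 2 WT libraries of day 0 differed from each other more than any other pair (Pearson r = 0.961 across tested genes, against a median of 0.991 over the 9 groups). In replicate 2 the longest genes read lower and the shortest higher, by medians of -0.60 and 0.68 on the log2 scale for the longest and shortest 10% of genes. This touched the genes described here: 23 of them are at least 3000 bases long, and 19 of these 23 were lower in replicate 2 (median difference -0.58), against 9 of the 15 shorter ones (median -0.05). Srl, Casq2 and Jph1 were among the furthest apart. At day 2, WT replicate 1 was far below replicate 2 in a few genes, with Casq1 at 136 RPKM in replicate 1 and 601 RPKM in replicate 2. Read depth, recovered from the whole-read steps that RPKM values keep, was 34.8 to 60.7 megareads if the unit recovered is 1 read. Dmwd was lower in QKO (38.2 and 28.7 RPKM at day 0) than in WT (64.8 and 81.1 RPKM). Dmpk was at 203 and 196 RPKM in TKO and 146 and 145 RPKM in QKO, against 237 and 341 RPKM in WT at day 0. Mbnl1 was at 21.0 and 16.9 RPKM in TKO and 12.1 and 17.1 RPKM in QKO, against 18.9 and 7.23 RPKM in WT at day 0, so its RPKM gives no check of the labels. Six5 was at 1.59 and 1.36 RPKM in TKO and 1.57 and 1.25 RPKM in QKO, against 2.26 and 3.39 RPKM in WT.

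**Figure D1:**
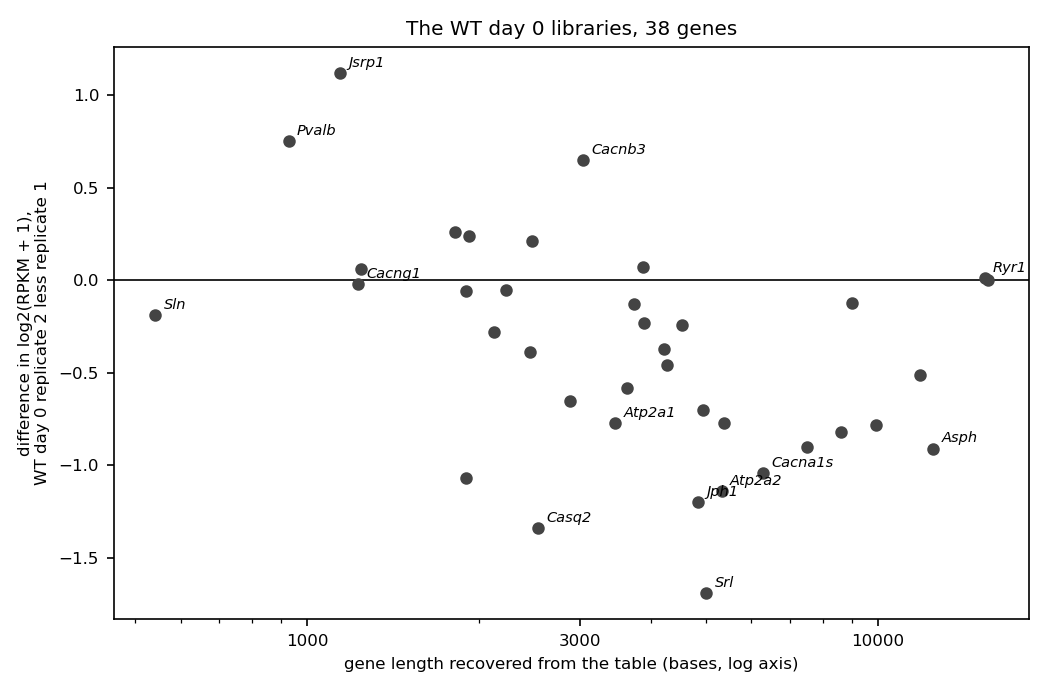
Each point is 1 of the 38 genes, with gene length in bases on a log axis and, on the vertical axis, the difference in log2(RPKM + 1) between the WT day 0 libraries, replicate 2 less replicate 1. Most genes of at least 3000 bases lie below 0 (19 of 23), while Jsrp1 and Pvalb, both short, lie above it.

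At day 0, before differentiation was induced, 23 of the 38 genes were higher in TKO than in WT MuSCs and 1 was lower, at a limma adjusted p under 0.05. Of all genes tested, 12.8% were called higher and 10.2% lower in the same comparison. In QKO 24 of the 38 were higher and 1 was lower, where 17.3% of all genes were called higher and 18.1% lower. The median log2 fold change of the 38 genes was 0.98 in TKO and 0.91 in QKO, against 0.01 and -0.01 over all genes tested. The calls of both mutants rest on the same WT libraries, and 20 genes were called higher in both. Without WT replicate 2 the medians were 0.70 and 0.71, and the genes called higher were 19 in TKO and 20 in QKO. QKO and TKO themselves did not differ in any of the 38 genes at day 0 at this threshold (8 had an unadjusted p under 0.05), where 1.53% of all genes were called higher and 1.23% lower. Limma voom on recovered reads called 0 of the 38 as well. With either WT day 0 library left out, 5 of the 38 were called between QKO and TKO, and 1 was called without either WT day 2 library or QKO day 0 replicate 2.

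The rise at day 0 moved together with markers of muscle differentiation. The summed RPKM of 10 such markers (among them Myog, Myh3, Ckm and Acta1) was 4062 and 5840 in TKO and 4826 and 3215 in QKO, against 1547 and 1253 in WT. All 10 were called higher in TKO and 8 in QKO. The 6 stem cell markers, Pax7 and Myf5 included, summed to 633 and 564 RPKM in TKO and 732 and 674 RPKM in QKO. In WT they summed to 493 and 507 RPKM. Itga7, Cdh15 and Sdc4 made up most of these sums. Pax7 overlapped between the groups, at 24.9 and 20.8 RPKM in TKO and 26.9 and 26.7 in QKO, against 27.6 and 11.7 in WT. Myf5 was at 52.6 and 48.3 RPKM in TKO and 22.7 and 43.1 RPKM in QKO, against 16.2 and 11.3 RPKM in WT. Sdc4, too, was above both WT libraries in every mutant library. Cdh15 in TKO (127 and 124 RPKM) was below WT (132 and 157 RPKM). Of the 6 stem cell markers, 1 was called higher in TKO and 2 in QKO, and none lower. The 8 fibroblast markers summed to 179 and 175 RPKM in TKO and 175 and 226 RPKM in QKO, against 88.6 and 92.3 RPKM in WT. Most of that sum came from Col3a1 and Ly6a, while Pdgfra, Dcn, Lum and Pi16 were below 1 RPKM in every library. Thy1 was at 9.64 and 7.79 RPKM in TKO and 6.47 and 6.16 in QKO, against 0.0937 and 0.019 in WT at day 0. Of the 4 fibroblast markers tested, 2 were called higher in TKO and 3 in QKO, and none lower. Of the smooth muscle and pericyte markers, which summed to 614 and 589 RPKM in TKO and 576 and 639 RPKM in QKO against 332 and 431 RPKM in WT, Acta2 made up nearly all, and Myh11 was below 1 RPKM throughout. Of the 6 tested, 2 were called higher and 1 lower in TKO, and 2 higher and none lower in QKO. Tagln was at 2.88 and 4.01 RPKM in TKO and 6.76 and 3.56 RPKM in QKO, against 9.69 and 8.41 RPKM in WT. Endothelial and immune markers summed to at most 2.02 and 6.10 RPKM in any library. The part of these marker differences in the day 0 results was not tested, and in bulk RNA more cells that express a gene cannot be told apart from more RNA per cell.

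**Figure D2:**
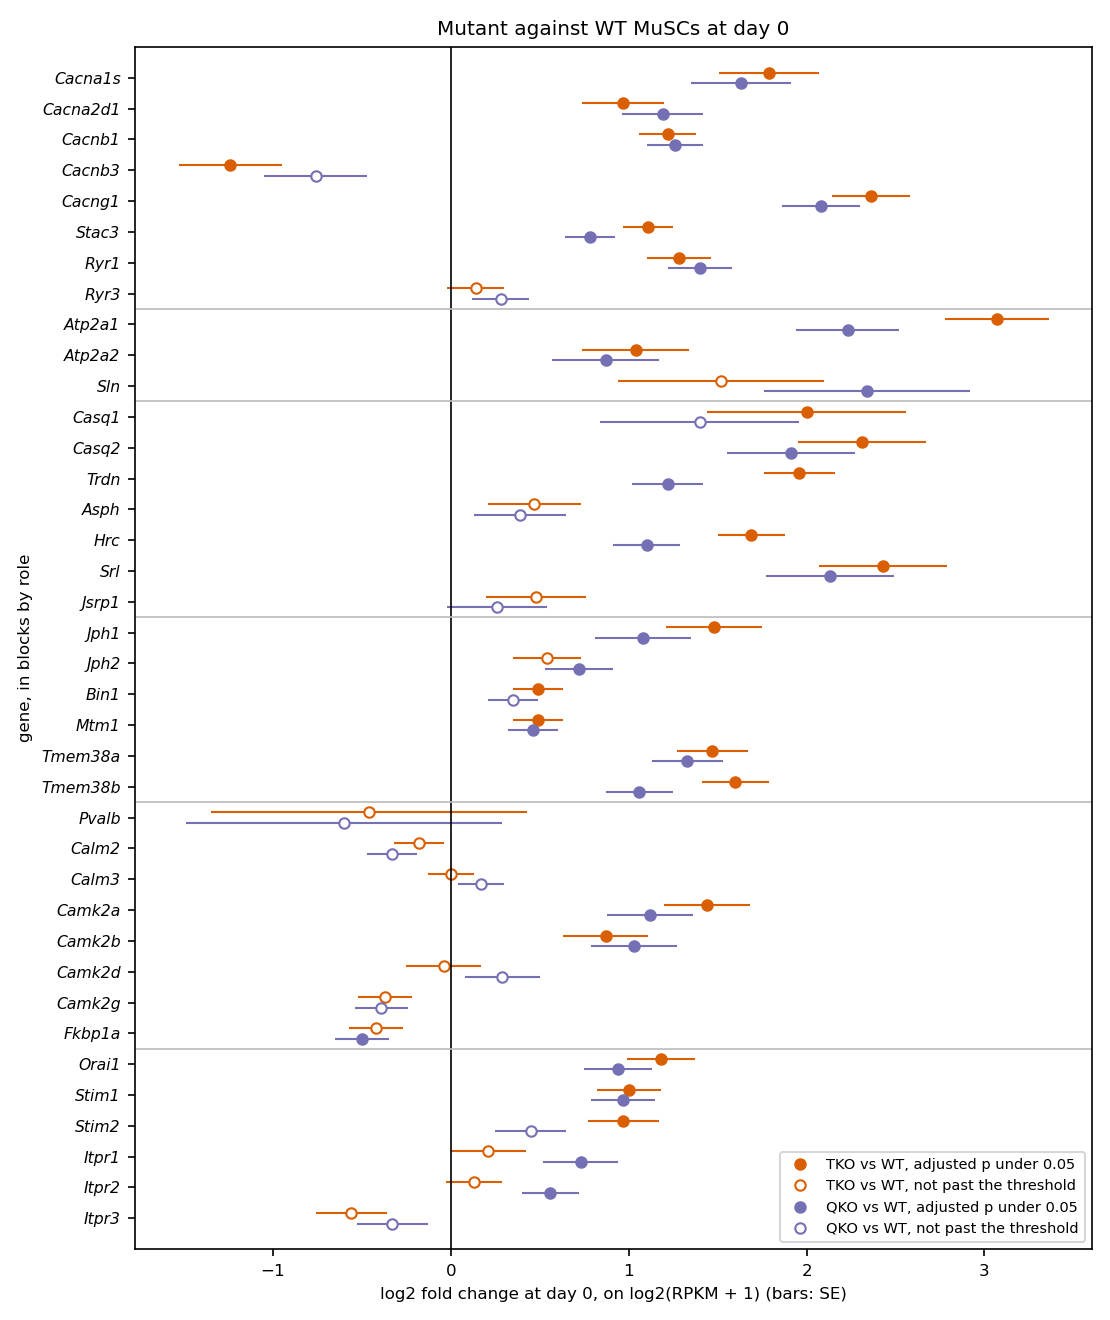
Log2 fold changes of the 38 genes at day 0, on log2(RPKM + 1) with standard errors as bars, for TKO against WT (orange) and QKO against WT (purple), in blocks by role; filled points are past an adjusted p of 0.05. Most genes of the voltage sensor, pumps, store and triad lie to the right of 0, with Atp2a1 furthest right in TKO at 3.07, whereas Cacnb3, Camk2g, Fkbp1a and Itpr3 lie to the left in both mutants.

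Among the pumps, Atp2a1, which encodes SERCA1, the fast-muscle calcium pump, had the largest fold change of the 38 genes in TKO. It was at 122 and 192 RPKM in TKO and 77.8 and 94.4 RPKM in QKO, against 23.1 and 13.1 RPKM in WT. All 4 mutant libraries lay above both WT libraries, and the log2 fold change was 3.07 ± 0.29 (SE) in TKO (limma adjusted p = 7.3e-06) and 2.23 ± 0.29 in QKO (limma adjusted p = 0.000127). Atp2a2, the slow and housekeeping pump SERCA2, was at 147 and 150 RPKM in TKO and 127 and 136 RPKM in QKO, against 107 and 47.9 RPKM in WT. Its groups did not overlap either, but the call in both mutants (log2 fold changes of 1.04 and 0.87) was lost without WT replicate 2 (0.48 and 0.30), and the values were 1.61 and 1.44 without WT replicate 1. Sln, which encodes sarcolipin, a small inhibitor of the pumps, was at 8.97 and 13.8 RPKM in TKO and 29.3 and 14.3 RPKM in QKO, against 3.53 and 2.96 RPKM in WT. It passed the threshold in QKO (2.34 ± 0.58, limma adjusted p = 0.00753; 1.85 and not called without QKO replicate 1) and not in TKO (1.52 ± 0.58, limma adjusted p = 0.0711).

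Of the 8 genes of the voltage sensor and release channel, 6 were called higher in each mutant. Cacng1, the gamma subunit, was at 41.9 and 64.5 RPKM in TKO and 55.0 and 33.4 RPKM in QKO, against 9.41 and 9.29 RPKM in WT, with log2 fold changes of 2.36 ± 0.22 and 2.08 ± 0.22. Cacna1s, the pore and voltage-sensing subunit, was at 14.4 and 20.4 RPKM in TKO and 17.8 and 13.1 RPKM in QKO, against 6.55 and 2.67 RPKM in WT. Its log2 fold changes were 1.79 ± 0.28 and 1.63 ± 0.28. For Cacnb1, the beta subunit of skeletal muscle, RPKM was 14.9 and 20.5 in TKO and 21.0 and 15.3 in QKO, against 6.74 and 7.10 in WT, and the groups were again apart. Stac3, an adaptor needed to couple the voltage sensor to the release channel, was at 51.4 and 67.0 RPKM in TKO and 44.5 and 48.5 RPKM in QKO, against 24.2 and 29.3 RPKM in WT. Cacna2d1, the alpha2-delta subunit, was at 17.9 and 20.8 RPKM in TKO and 19.2 and 26.7 RPKM in QKO, against 13.2 and 6.59 RPKM in WT. It was called in both mutants (0.97 and 1.19), and without WT replicate 2 the call was lost in TKO (0.52, limma adjusted p = 0.0608) and kept in QKO (0.74). The release channel gene Ryr1 was at 24.9 and 35.9 RPKM in TKO and 29.7 and 35.5 RPKM in QKO, against 11.7 and 11.8 RPKM in WT. The log2 fold changes were 1.28 ± 0.18 and 1.40 ± 0.18, and 0.82 and 0.72, still called, with the length trend removed. Ryr3 was at most 0.260 RPKM in any day 0 library.

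Cacnb3, a beta subunit found mainly outside skeletal muscle, went the other way. It was at 7.69 and 7.46 RPKM in TKO and 11.8 and 10.2 RPKM in QKO, against 15.2 and 24.3 RPKM in WT. The fall passed the threshold in TKO (-1.24 ± 0.29, limma adjusted p = 0.00884) and not in QKO (-0.76 ± 0.29, limma adjusted p = 0.0597), and without WT replicate 2 it was lost in TKO too (-0.92). With the length trend removed, it was called in both mutants (-1.29 in TKO and -0.77 in QKO, limma adjusted p = 0.00397 and 0.0412). Cacnb1 made up 66.0% and 73.4% of the summed RPKM of Cacnb1 and Cacnb3 in TKO and 64.0% and 60.1% in QKO, against 30.8% and 22.6% in WT. Cacnb2, another beta subunit gene outside the 38 and chosen after its values were seen, was at 0.467 and 0.360 RPKM in TKO and 0.474 and 0.545 RPKM in QKO, against 3.24 and 2.21 RPKM in WT. It was called lower in both mutants (-1.39 ± 0.12 and -1.29 ± 0.12).

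Of the 7 genes of the calcium store, 5 were called higher in TKO and 4 in QKO at day 0. Casq2, the cardiac and slow-muscle calsequestrin, was at 81.9 and 125 RPKM in TKO and 93.4 and 62.9 RPKM in QKO, against 31.9 and 12 RPKM in WT (log2 fold changes 2.31 ± 0.36 and 1.91 ± 0.36). Srl, which encodes sarcalumenin, a luminal glycoprotein that binds calcium, was at 67.0 and 87.8 RPKM in TKO and 65.7 and 58.1 RPKM in QKO, against 24.8 and 7.01 RPKM in WT (2.43 ± 0.36 and 2.13 ± 0.36). In both genes the WT libraries were far apart and below every mutant library. Without WT replicate 2, Srl was 1.59 in TKO and 1.28 in QKO, and Casq2 was 1.64 and 1.24, all still called. Hrc, the histidine-rich calcium-binding protein of the lumen, was at 25.7 and 38.8 RPKM in TKO and 19.3 and 22.2 RPKM in QKO, against 10.6 and 7.84 RPKM in WT. Trdn, triadin, which anchors calsequestrin to the release channel, was at 5.44 and 7.41 RPKM in TKO and 2.94 and 3.95 RPKM in QKO, against 1.06 and 0.744 RPKM in WT. Both were called in TKO (1.69 ± 0.19 and 1.96 ± 0.20) and in QKO (1.10 ± 0.19 and 1.22 ± 0.20). Casq1, the fast-muscle calsequestrin, was at 7.87 and 18.9 RPKM in TKO and 7.74 and 7.84 RPKM in QKO, against 3.83 and 1.29 RPKM in WT. It was called in TKO alone (2.0 ± 0.56, limma adjusted p = 0.0209), a call lost without WT replicate 2 (1.46) and without TKO replicate 2, while in QKO the value was 1.40 ± 0.56 (limma adjusted p = 0.0652). Asph, the junctin and aspartate hydroxylase gene, and Jsrp1, a triad junction protein, did not pass the threshold in either mutant, and both overlapped between the groups. Asph was at 13.0 and 12.4 RPKM in TKO and 10.3 and 13.7 RPKM in QKO, against 12.5 and 6.20 RPKM in WT. The log2 fold changes of Asph in TKO and QKO were 0.93 and 0.84 without WT replicate 1, but 0.02 and -0.06 without WT replicate 2. Jsrp1 was at 84.3 and 108 RPKM in TKO and 99.6 and 67.5 RPKM in QKO, against 45.9 and 101 RPKM in WT. Its log2 fold changes in TKO and QKO were 1.04 and 0.82 without WT replicate 2, but -0.08 and -0.30 without WT replicate 1.

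Of the triad structure genes, Jph1 encodes junctophilin 1, which ties the reticulum to the transverse tubule in skeletal muscle. It was at 6.63 and 8.09 RPKM in TKO and 5.67 and 4.96 RPKM in QKO, against 3.51 and 0.969 RPKM in WT (1.48 ± 0.27 and 1.08 ± 0.27), which without WT replicate 2 became 0.88 and 0.48 (limma adjusted p = 0.00276 and 0.05). The QKO value was 1.68 without WT replicate 1, and its call was lost without QKO replicate 1 (1.0). Its paralog Jph2, the cardiac form, was expressed at a higher level, with 83.3 and 91.7 RPKM in TKO and 117 and 84.0 RPKM in QKO, against 70.1 and 50.9 RPKM in WT, and passed the threshold in QKO alone (0.72 ± 0.19), a call lost without WT replicate 2 or QKO replicate 1 (0.49 in each case). The counter-ion channel genes Tmem38a and Tmem38b (TRIC-A and TRIC-B), whose potassium currents balance calcium release, were both called in both mutants. Tmem38a was at 29.3 and 42.6 RPKM in TKO and 39.5 and 25.8 RPKM in QKO, against 13.5 and 10.9 RPKM in WT. Tmem38b was at 16.4 and 23.0 RPKM in TKO and 13.0 and 13.2 RPKM in QKO, against 7.46 and 4.40 RPKM in WT. Bin1, which bends the membrane of the transverse tubule, was at 253 and 302 RPKM in TKO and 264 and 239 RPKM in QKO, against 183 and 212 RPKM in WT, and was called in TKO alone (0.49 ± 0.14), a call lost without TKO replicate 2 (0.36). Mtm1, the lipid phosphatase myotubularin, stayed below 2 RPKM at day 0 and was called in both mutants (0.49 and 0.46), with both calls lost without WT replicate 2 (0.37 and 0.35).

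The signalling genes did not move as a block. Camk2a, a calmodulin-dependent kinase, was at 4.01 and 6.43 RPKM in TKO and 4.00 and 3.76 RPKM in QKO, against 1.93 and 0.727 RPKM in WT, and was called in both (1.44 ± 0.24 and 1.12 ± 0.24, and 1.06 and 0.73 without WT replicate 2). Camk2b was lower in level, at 1.38 and 1.70 RPKM in TKO and 2.08 and 1.61 RPKM in QKO, against 0.575 and 0.222 RPKM in WT, and was also called in both (0.87 ± 0.24 and 1.03 ± 0.24), with both calls lost without WT replicate 2 (0.69 and 0.85). Camk2g, the kinase with the highest level at day 0, was at 28.6 and 29.5 RPKM in TKO and 25.7 and 31.9 RPKM in QKO, against 39.7 and 36.1 RPKM in WT, with fold changes of -0.37 and -0.39 that did not pass the threshold, but -0.48 and -0.47, past it, with the length trend removed. Camk2d overlapped between the groups, at 10.2 and 9.76 RPKM in TKO and 12.5 and 13.3 RPKM in QKO, against 14.0 and 7.53 RPKM in WT. Calm2 and Calm3, which encode the same calmodulin protein, did not pass it either: Calm2 was at 281 and 277 RPKM in TKO and 242 and 262 RPKM in QKO, against 310 and 324 RPKM in WT. Calm3 was at 89.3 and 87.7 RPKM in TKO and 106 and 94.5 RPKM in QKO, against 90.1 and 87.3 RPKM in WT, and its TKO and WT libraries were interleaved. Fkbp1a, which encodes FKBP12, a small protein bound to the release channel, was at 140 and 122 RPKM in TKO and 137 and 110 RPKM in QKO, against 161 and 190 RPKM in WT. Its lower level was called in QKO (-0.50 ± 0.15, limma adjusted p = 0.0176), a call lost without WT replicate 2 (-0.38). In TKO it was -0.42 ± 0.15 (limma adjusted p = 0.0544). With the length trend removed, it was called lower in both mutants (-0.36 in TKO and -0.40 in QKO). Pvalb, the cytosolic calcium buffer parvalbumin of fast fibres, was at most 1.24 RPKM in any day 0 library.

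Of the 6 genes of store-operated entry and inositol trisphosphate receptors, 3 were called higher in TKO and 4 in QKO, Orai1 and Stim1 in both. Orai1, the pore of store-operated entry, was at 27.2 and 35.4 RPKM in TKO and 29.2 and 23.3 RPKM in QKO, against 13.4 and 12.8 RPKM in WT (1.18 ± 0.19 and 0.94 ± 0.19). Stim1, its calcium sensor, was at 8.98 and 11.2 RPKM in TKO and 9.03 and 10.7 RPKM in QKO, against 5.75 and 3.53 RPKM in WT (1.0 ± 0.18 and 0.97 ± 0.18). For the related sensor Stim2, RPKM was 32.7 and 34.9 in TKO and 20.9 and 25.7 in QKO, against 21.6 and 12.9 in WT, and only the TKO value was called (0.97 ± 0.20, and 0.62 without WT replicate 2). Whether TKO and QKO differ in Stim2 was tested, and the difference, QKO less TKO, of -0.52 ± 0.20 had a limma adjusted p of 0.173. The inositol trisphosphate receptor Itpr1 was at 3.41 and 2.98 RPKM in TKO and 4.67 and 5.45 RPKM in QKO, against 3.76 and 1.77 RPKM in WT. Itpr2 was at 1.34 and 1.40 RPKM in TKO and 2.07 and 2.32 RPKM in QKO, against 1.58 and 0.813 RPKM in WT. Both were called in QKO alone (0.73 ± 0.21 and 0.56 ± 0.16), and both calls were lost without WT replicate 2 (0.34 and 0.30) and after a trend with gene length was removed (0.26 and 0.00). Without WT replicate 1, Itpr1 was 1.13 in QKO and also called in TKO (0.60). Itpr3 was at 4.75 and 4.10 RPKM in TKO and 5.96 and 4.80 RPKM in QKO, against 7.31 and 6.67 RPKM in WT. It was not called (-0.56 ± 0.20 and -0.33 ± 0.20), but with the length trend removed it was called lower in both mutants (-0.89, limma adjusted p = 0.00905, and -0.77, limma adjusted p = 0.0146).

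Promoters are shown for 4 genes of the pump, the store and the voltage sensor that were called higher in TKO at day 0 and that hold the letters CAGCTG, a core to which myogenic regulatory factors such as MyoD and myogenin are known to bind. Sequences run 5′ to 3′ from 250 bases before to 50 after the start of the RefSeq transcript on GRCm38.p6, and capitals mark the motif.
Atp2a1 (chr7:126463024-126463323, minus strand): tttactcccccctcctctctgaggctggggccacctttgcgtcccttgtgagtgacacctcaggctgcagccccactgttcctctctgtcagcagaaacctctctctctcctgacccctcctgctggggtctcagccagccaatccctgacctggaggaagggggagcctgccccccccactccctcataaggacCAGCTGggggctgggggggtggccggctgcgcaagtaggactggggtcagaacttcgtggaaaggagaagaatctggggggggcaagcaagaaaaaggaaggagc
Hrc (chr7:45335019-45335318, plus strand): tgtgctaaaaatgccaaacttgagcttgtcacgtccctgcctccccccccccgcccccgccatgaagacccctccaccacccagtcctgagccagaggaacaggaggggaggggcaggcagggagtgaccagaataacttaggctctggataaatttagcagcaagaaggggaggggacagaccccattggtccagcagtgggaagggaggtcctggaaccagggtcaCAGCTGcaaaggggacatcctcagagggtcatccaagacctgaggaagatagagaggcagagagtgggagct
Cacna1s (chr1:136052561-136052860, plus strand): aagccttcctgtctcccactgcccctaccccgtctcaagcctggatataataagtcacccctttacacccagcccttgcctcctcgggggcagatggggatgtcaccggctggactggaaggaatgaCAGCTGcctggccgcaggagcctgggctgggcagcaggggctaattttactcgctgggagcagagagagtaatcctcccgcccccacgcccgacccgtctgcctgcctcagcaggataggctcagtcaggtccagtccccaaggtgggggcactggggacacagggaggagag
Casq1 (chr1:172219846-172220145, minus strand): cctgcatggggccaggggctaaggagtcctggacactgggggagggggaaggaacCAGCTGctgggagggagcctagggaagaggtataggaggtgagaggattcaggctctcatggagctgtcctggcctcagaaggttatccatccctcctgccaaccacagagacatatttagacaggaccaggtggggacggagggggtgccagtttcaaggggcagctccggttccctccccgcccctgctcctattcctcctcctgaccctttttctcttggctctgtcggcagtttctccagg
The motif begins 55 bases before the start in Atp2a1, 22 in Hrc, 123 in Cacna1s and 195 in Casq1. It reads the same on both strands. Of 22 of the 38 genes with a promoter in the RefSeq table, 7 hold it (Atp2a1, Cacna1s, Casq1, Fkbp1a, Hrc, Jph2 and Orai1), against 18.3% of the 27025 genes in that table. Fkbp1a, which fell in QKO, is among the 7, while Casq2 and Tmem38a, which rose, do not hold it in this window. Another motif, CATTCC (the core bound by TEAD factors, searched on both strands), is in 2 of the 22, Cacna1s and Tmem38a, against 16.6% of the genes. A match is a run of letters and not a measured site.

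The step into differentiation changed most of the 38 genes in every genotype. Between day 1 and day 0, 26 of them rose and 7 fell in WT, where 20.4% of all genes were called higher and 46.1% lower. In TKO 27 rose and 5 fell, against 15.8% of all genes called higher and 42.1% lower, and in QKO 25 rose and 5 fell, against 15.4% and 42.4%. The median log2 change was 1.33 in TKO, 1.26 in QKO and 2.02 in WT, where the median of all genes tested was -0.31, -0.32 and -0.34. That shift over all genes depends on the scaling. Under median-ratio scaling it was -0.01, -0.00 and -0.03, and 49.1%, 48.7% and 48.8% of the calls were higher in place of 27.3%, 26.6% and 30.7%. Of the 38 genes, 29 then rose and 3 fell in TKO, 27 rose and 4 fell in QKO and 27 rose and 4 fell in WT. Over all 11890 genes tested, 3189 were called higher and 3302 lower in TKO under this scaling. The counts were 3147 and 3320 in QKO, and 3644 and 3816 in WT.

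Srl and Atp2a1 had the largest rises in WT between day 1 and day 0 (4.94 ± 0.36 and 4.83 ± 0.29). At day 1 Atp2a1 was at 831 and 876 RPKM in TKO and 675 and 649 RPKM in QKO, against 523 and 520 RPKM in WT. Casq2 was at 726 and 805 RPKM in TKO and 652 and 466 RPKM in QKO, against 651 and 516 RPKM in WT, so that the groups overlapped. In the order of levels at day 1, Bin1, Casq2, Atp2a1 and Srl led in every genotype, whereas at day 0 Calm2 stood first in each. Bin1, at 699 and 746 RPKM in WT at day 1, lay above both WT libraries of Casq2. Casq2 and Atp2a1 overlapped there, and so did Calm2 and Bin1 at day 0 in TKO and in QKO. The rises of Tmem38a (4.46 ± 0.20), Cacng1 (4.42 ± 0.22) and Trdn (4.63 ± 0.20) in WT were of the same order as that of Hrc (4.39 ± 0.19).

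The genes that fell were mainly those of calmodulin, FKBP12 and the inositol trisphosphate receptors. Calm2 was at 143 and 124 RPKM in TKO, 120 and 115 RPKM in QKO and 97.6 and 89.9 RPKM in WT at day 1, and its fall from day 0 was called in TKO (-1.06 ± 0.14), in QKO (-1.10 ± 0.14) and in WT (-1.75 ± 0.14). Calm2, Calm3, Fkbp1a, Itpr1 and Itpr2 were called lower in all 3 genotypes, and Itpr3 and Camk2g in WT. Camk2g was called higher in TKO (0.45 ± 0.15). Without WT day 0 replicate 1, Itpr1 and Itpr2 were at -0.68 and -0.41 in WT, still called. Calm2, Itpr1 and Itpr2 kept the WT call under median-ratio scaling. That of Calm3 (-0.49 ± 0.13) did not (-0.10), nor did that of Fkbp1a (-0.66 ± 0.15, against -0.27), and Camk2g changed direction (-0.35 ± 0.15, against 0.04). Itpr1 was at 1.01 and 0.653 RPKM in TKO, 0.976 and 1.13 RPKM in QKO and 0.643 and 0.811 RPKM in WT at day 1, all below every day 0 library.

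**Figure D3:**
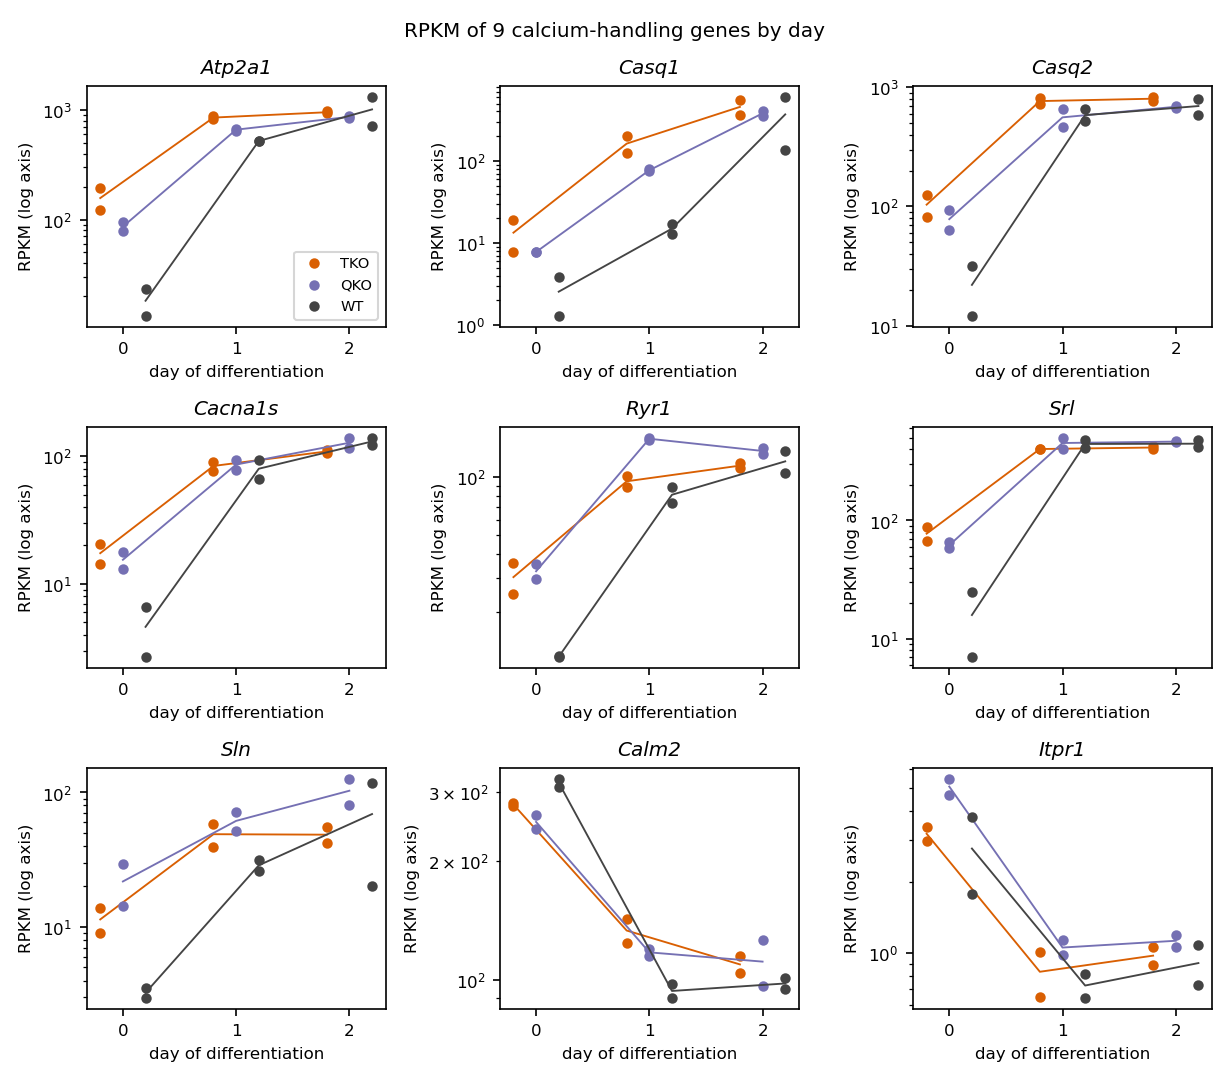
RPKM on a log axis against the day of differentiation for 9 of the genes; each point is a library and lines join the means of TKO (orange), QKO (purple) and WT (dark grey). At day 0 the mutant points of Atp2a1, Casq2, Cacna1s, Ryr1 and Srl lie above both WT points; by day 2 the genotypes overlap in Atp2a1 and Casq2, and Calm2 and Itpr1 are lower at days 1 and 2 than at day 0.

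Between day 2 and day 1 fewer genes changed. In WT 8 of the 38 rose and none fell, where 10.4% of all genes were called higher and 5.0% lower. Higher calls were 67.6% of all calls in WT and 71.4% in TKO, but 47.6% and 45.7% under median-ratio scaling. The 8 were Casq1, Camk2b, Stim1, Trdn, Ryr3, Cacnb1, Ryr1 and Calm3, and 4 were called without WT day 2 replicate 2. Without WT day 1 replicate 2, 5 were. Casq1 rose by 4.18 ± 0.56 in WT, with 136 and 601 RPKM at day 2 and 17.2 and 12.8 RPKM at day 1. In TKO 3 rose and none fell (Cacnb1, Calm3 and Camk2b), against 4.73% of all genes called higher and 1.89% lower; the count was 0 without TKO day 1 replicate 2 or either TKO day 2 library, 1 without TKO day 1 replicate 1, and 6 without either WT day 2 library. In QKO 2 rose and none fell (Casq1 and Camk2b), against 1.42% and 1.62%. Casq1 in QKO (2.28 ± 0.56) lost its call when any QKO library, any TKO library of days 1 and 2 or either WT day 1 library was left out, so that 1 gene was called, and the count was 5 without either WT day 2 library or WT day 0 replicate 2, and 4 without WT day 0 replicate 1. Camk2b, a kinase subunit enriched in mature muscle and brain, was at 9.78 and 9.16 RPKM in TKO, 7.79 and 8.17 RPKM in QKO and 4.98 and 10.7 RPKM in WT at day 2.

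After induction fewer of the 38 genes were called between the genotypes. At day 1, 2 of the 38 genes were higher in TKO than in WT and none lower (Casq1 and Camk2b), where 1.24% of all genes were called higher and 0.841% lower. In QKO 3 were higher and none lower (Ryr1, Ryr3 and Casq1), against 1.43% and 1.33%. At an unadjusted limma p under 0.05 there were 12 of the 38 in TKO and 7 in QKO, so few calls do not show equal levels. Casq1 was at 125 and 200 RPKM in TKO and 74.7 and 79.3 RPKM in QKO, against 17.2 and 12.8 RPKM in WT at day 1. Every mutant library was above both WT libraries by a wide margin, with log2 fold changes of 3.33 ± 0.56 (limma adjusted p = 0.00853) and 2.30 ± 0.56 (limma adjusted p = 0.0447). Camk2b was at 3.14 and 2.55 RPKM in TKO and 1.59 and 1.61 RPKM in QKO, against 0.970 and 0.788 RPKM in WT. Ryr1 was at 88.8 and 102 RPKM in TKO and 160 and 157 RPKM in QKO, against 73.7 and 88.8 RPKM in WT, so that QKO stood apart from the other genotypes (0.96 ± 0.18 against WT). Ryr3, the minor release channel of immature muscle, was at 0.817 and 0.927 RPKM in TKO and 1.82 and 1.42 RPKM in QKO, against 0.269 and 0.316 RPKM in WT (1.01 ± 0.16 in QKO). Both ryanodine receptor calls, on the longest transcripts of the 38, were lost when a trend with gene length was removed (0.55 and 0.60). The day 1 calls were also lost when a library of the compared groups was left out: 0 genes were called in TKO without either of its day 1 libraries or either WT day 1 library, 1 without any other single TKO library or any single QKO library, and in QKO 0 without QKO day 1 replicate 1 or either WT day 1 library and 1 without QKO day 1 replicate 2.

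No gene of the 38 differed between QKO and TKO at day 1 at the threshold (3 had an unadjusted p under 0.05, and limma voom called 0), where 0.0925% of all genes were called higher and 0.160% lower (36.7% of the calls higher, and 51.5% under quantile scaling). For Ryr1 the difference, QKO less TKO, was 0.73 ± 0.18 (limma adjusted p = 0.205). At day 2 none of the 38 was called in TKO against WT by limma (1 at an unadjusted p under 0.05), in QKO against WT (3) or in QKO against TKO (3), and limma voom on recovered reads called 0 in each. Background shares at day 2 were 0.0673% higher and 0.0421% lower in TKO against WT, 0.0673% and 0.278% in QKO against WT, and 0.109% and 0.631% in QKO against TKO. WT day 2 replicate 2 bears on these counts: without it 1 gene was called in TKO and 3 in QKO. Without WT day 2 replicate 1, or without either WT day 0 library, 1 was called in QKO. Between QKO and TKO 1 was called without any single WT library of day 0 or day 2. Sln at day 2 was at 54.9 and 42.2 RPKM in TKO and 80.0 and 126 RPKM in QKO, against 20.2 and 118 RPKM in WT, and Pvalb was at 11.6 and 10.7 RPKM in TKO and 8.63 and 4.79 RPKM in QKO, against 0.133 and 22.9 RPKM in WT. The share of higher calls among all genes at day 2 moved with scaling, to 42.2% under median-ratio scaling in place of 19.5% in QKO against WT and to 61.9% in place of 14.8% in QKO against TKO. For Pvalb the WT libraries enclosed those of the mutants, and for Sln they enclosed all but QKO replicate 2, which lay above both.

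**Figure D4:**
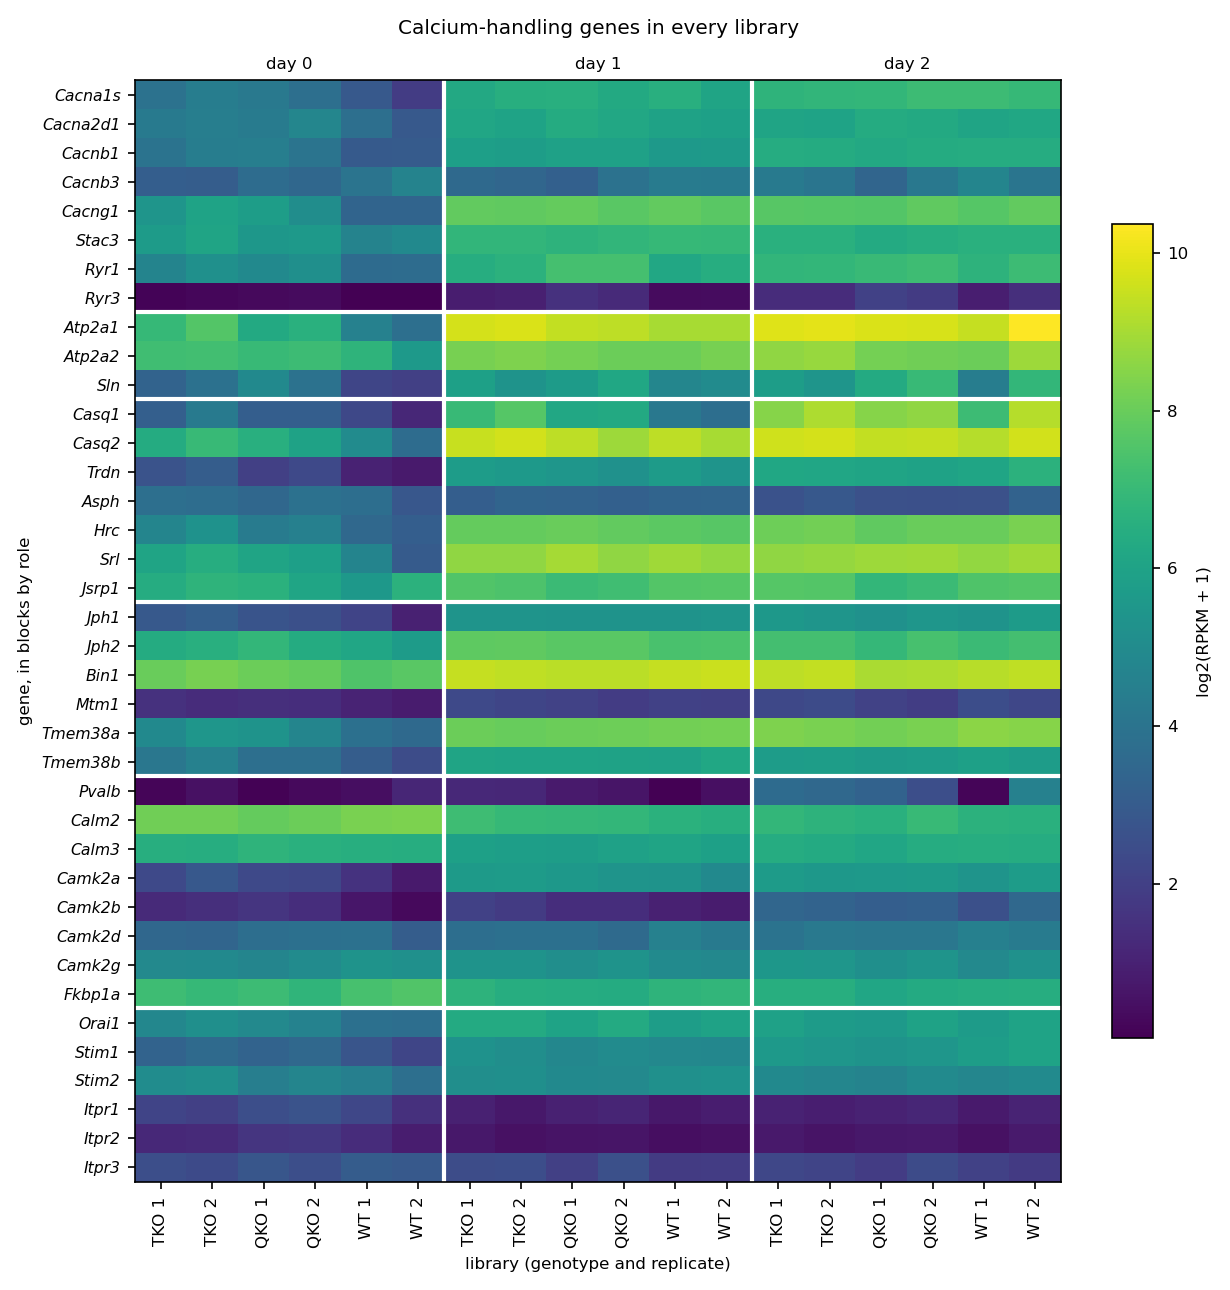
Log2(RPKM + 1) of the 38 genes (rows, in blocks by role) in the 18 libraries (columns, by day, with TKO and QKO left of WT). The day 0 block is darker than days 1 and 2 for most rows, WT at day 0 is darkest of all, and the rows of Calm2, Fkbp1a and the Itpr genes run the other way.

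The signed log2 fold change of each mutant against WT was then compared between a later day and day 0. In TKO it was lower at day 1 for 14 of the 38 genes and higher for 3 (Calm2, Camk2g and Itpr3). Over all genes, 5.66% were called lower and 3.68% higher. The TKO means of these 3 genes were below those of WT at day 0 and above them at day 1. For day 2 against day 0 the counts in TKO were 17 lower and 1 higher (Camk2g), against 5.10% and 3.42%. In QKO 12 were lower and 1 was higher (Camk2g) at day 1, against 6.16% and 4.81%, and 16 were lower and none higher at day 2, against 8.39% and 4.28% (33.8% of all calls higher, and 44.8% under median-ratio scaling). The 11 genes called lower in all 4 comparisons were Atp2a1, Cacna1s, Cacnb1, Cacng1, Casq2, Hrc, Srl, Stac3, Tmem38a, Tmem38b and Trdn. Without WT day 0 replicate 2, 8 of the 11 were called in all 4, with a call lost in Cacna1s, Casq2 and Hrc. These comparisons share the day 0 WT libraries and are not separate lines of evidence. In TKO, Srl had the largest value at day 1 (-2.57 ± 0.51) and Atp2a1 at day 2 (-3.09 ± 0.41). Casq1 was not among them, since its difference from WT was 2.0 at day 0 and 3.33 at day 1 in TKO. WT day 0 replicate 1 bears on these counts in QKO: without it 25 genes were called at day 1 and 27 at day 2 in place of 13 and 16. In TKO at day 1 the 17 calls became 8 without TKO day 0 replicate 2, 9 without TKO day 1 replicate 1, 11 without TKO day 1 replicate 2, and 10 without either WT day 1 library. In QKO 5 were called at day 1 without QKO day 0 replicate 1 or QKO day 1 replicate 2, 6 without WT day 1 replicate 1 and 7 without WT day 1 replicate 2, and 10 at day 2 without QKO day 0 replicate 1 or QKO day 2 replicate 1.

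Paralogs shifted in share as differentiation went on, which is given as a description with no test. Atp2a1 made up 45.4% and 56.2% of the summed SERCA RPKM in TKO and 38% and 40.9% in QKO, against 17.8% and 21.5% in WT at day 0, and 69.3% to 75.5% in all libraries at day 2. All 4 mutant libraries lay between WT at day 0 and the later days. Casq1 held 7.65% to 13.1% of calsequestrin RPKM in all day 0 libraries, then 14.7% and 19.9% in TKO and 10.3% and 14.6% in QKO, against 2.57% and 2.42% in WT at day 1. Casq2 therefore remained the main calsequestrin transcript in every library. Ryr1 and Ryr3 did not exchange, since Ryr3 was at most 2.29% of their sum. Within the kinases, Camk2a was at 9.08% and 13.6% of the 4 genes in TKO and 9.04% and 7.44% in QKO, against 3.44% and 1.63% in WT at day 0, and 39.4% to 44.0% in all libraries at day 2, while Camk2g took the largest share at day 0. Stim1 held 21.0% to 30.1% of the Stim RPKM at day 0 and 58.0% to 67.5% at day 2. Itpr3 held 50% and 48.4% of the Itpr RPKM in TKO and 46.9% and 38.2% in QKO, against 57.8% and 72.1% in WT at day 0. Jph2 and Tmem38a stayed the larger transcripts of their pairs throughout, and Calm2 that of its pair.

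**Figure D5:**
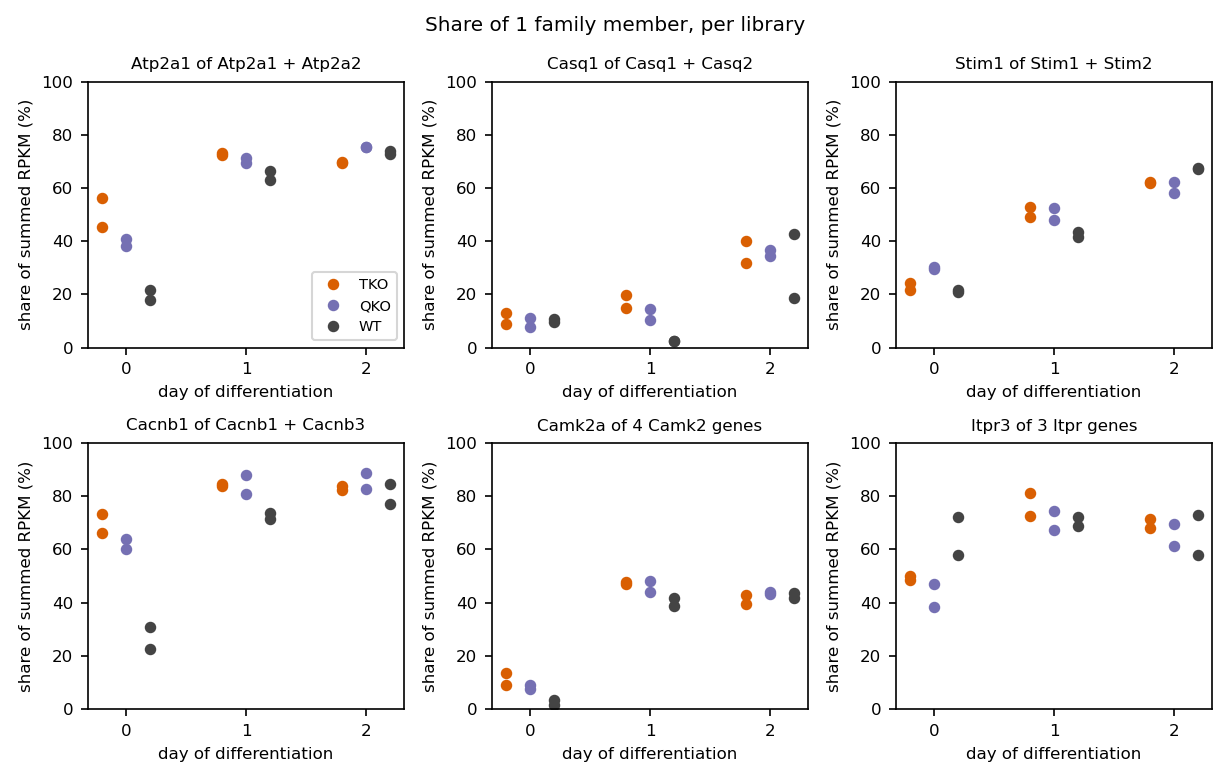
Share of the summed RPKM of a gene family held by 1 member, in percent, for each library by day (TKO orange, QKO purple, WT dark grey). At day 0 the mutant points for Atp2a1, Cacnb1 and Camk2a lie above both WT points, for Itpr3 they lie below, and Casq1 separates the mutants from WT at day 1.

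Of 68 other genes of calcium handling, 67 were found in the table and 50 were tested. At day 0, 18 of the 50 were higher and 5 lower in TKO, and 17 were higher and 6 lower in QKO, where 12.8% and 10.2% of all genes were called higher and lower in TKO and 17.3% and 18.1% in QKO. Their median log2 fold changes were 0.24 and 0.27. Cav3, caveolin-3 of the muscle membrane, was at 56.4 and 81.2 RPKM in TKO and 78.7 and 39.8 RPKM in QKO, against 16.4 and 8.0 RPKM in WT (2.46 ± 0.35 and 2.19 ± 0.35). Dhrs7c, an enzyme of the sarcoplasmic reticulum, was at 6.43 and 11.7 RPKM in TKO and 11.3 and 6.04 RPKM in QKO, against 1.78 and 0.771 RPKM in WT. Cacng6, another gamma subunit, rose in TKO by 1.88 ± 0.24, and Slc8a3, a sodium-calcium exchanger, rose in QKO by 1.59 ± 0.21. In these genes, too, every mutant library lay above both WT libraries. Of the 9 genes for calcium uptake into mitochondria, 4 were higher and 1 lower in each mutant, beside those same shares over all genes, with Mcu, the pore, at 0.70 ± 0.13 in TKO and 0.77 ± 0.13 in QKO. Between day 1 and day 0 in WT, 20 of the 50 rose and 16 fell, where 20.4% of all genes were called higher and 46.1% lower, with the largest rises in Cacng6 (4.52 ± 0.24), Dhrs7c (3.88 ± 0.37) and Cav3 (3.82 ± 0.35).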

How the data were processed

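RNA sequencing was done on MuSCs of 9 groups with 2 libraries each. Per the labels and the methods, the authors mapped reads to the GRCm38.p5 build by HISAT2 2.0.5 and computed RPKM per protein-coding gene with StringTie, whose version is not given in the sources used here, nor is the treatment of strand or of reads shared between copies such as Calm2, Calm3 and their pseudogenes. The deposited RPKM table had 22013 rows, of which 1401 with a repeated symbol were left out. RPKM values stepped in whole reads: in 16544 of 16548 rows all libraries gave whole reads, within 0.18 of a read, at depths of 34.8 to 60.7 megareads. Among low recovered counts, 58.6% to 66.7% were even in each library, so the unit may not be a single read throughout. The depths and the voom fit carry that uncertainty. RPKM hides the depth of a single value, so low genes are less precise.

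Genes at 1 RPKM or more in at least 2 libraries (11890) were fitted as log2(RPKM + 1), the scale of all fold changes, which understates those of low genes. Limma 3.58.1 in R 4.3.3 (trend and robust settings) fitted 9 group means over all 18 libraries, with 9 residual degrees of freedom, and p-values were adjusted by Benjamini-Hochberg per comparison at a threshold of 0.05. They measure only the spread between these libraries. There were 19 comparisons. Plots were drawn in Matplotlib 3.10.9 (Python 3.11.15) from tables made with pandas 2.3.3 and NumPy 2.4.6. The fit was tested on simulated data. Alternatives were pseudocounts of 0.1 and 0.5, no filter, a mean RPKM of at least 5, quantile and median-ratio scaling, plain limma settings, voom on recovered reads, a replicate block, removal of a trend with gene length (loess, span 0.5), rows of repeated symbols kept, only the libraries compared, and each library left out. The 38 genes and all lists were chosen with earlier results of these data known. Values in every library are given for genes of the 38 called in a mutant with a mean of at least 5 RPKM and for members of paralog families, and the other pathway genes named are the 3 with the largest called change at day 0 in each mutant and in WT between day 1 and day 0. Mcu and Cacnb2 fall outside this rule and were chosen after their values were seen.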

Additional observations from a re-analysis of the deposited data

Results flagged for a closer look

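The values here are differences between days: the log2 fold change of a mutant against WT at day 1 or day 2, less that at day 0, as an interaction term of the limma fit. Each given value passed an adjusted p of 0.05. A negative value means that the fold change against WT was lower at the later day than at day 0. It does not mean that the mutant was below WT. Atp2a1 in TKO at day 1, for example, had a value of -2.36 with 831 and 876 RPKM, against 523 and 520 RPKM in WT. All the values rest on the same WT day 0 libraries, which differed from each other. Over all genes, 5.66% were called lower and 3.68% higher in TKO at day 1, and 5.10% and 3.42% at day 2. In QKO these shares were 6.16% and 4.81% at day 1, and 8.39% and 4.28% at day 2. The counts by role below take in a gene called in any of these comparisons. The share of all genes called in any of them was not computed. Without WT day 0 replicate 2, Casq2 in both mutants at day 1 and in QKO at day 2, Cacna1s and Hrc in QKO at day 1, Stim2 in TKO at day 2 and Jph1 in QKO at day 2 were among the values that no longer passed.

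Of the 8 genes of the voltage sensor and release channel, 5 had a called negative value in at least 1 mutant and day, and Ryr3, Cacnb3 and Cacna2d1 had none. Cacna1s was -1.70 in TKO at day 1, -2.05 in TKO at day 2, -1.51 in QKO at day 1 and -1.67 in QKO at day 2. Cacnb1 had a value of -1.05 in TKO at day 1, -1.24 in TKO at day 2, -0.96 in QKO at day 1 and -1.36 in QKO at day 2. Cacng1 was -2.28 in TKO at day 1, -2.46 in TKO at day 2, -2.06 in QKO at day 1 and -2.11 in QKO at day 2. Stac3 had a value of -1.22 in TKO at day 1, -1.10 in TKO at day 2, -0.93 in QKO at day 1 and -0.97 in QKO at day 2. Ryr1 was -1.05 in TKO at day 1, -1.34 in TKO at day 2 and -1.21 in QKO at day 2.

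Of the 3 genes of calcium uptake 1 had called negative values, and of the 7 genes of the store 4 did; Casq1, Asph, Jsrp1, Atp2a2 and Sln had none. Atp2a1 was -2.36 in TKO at day 1, -3.09 in TKO at day 2, -1.89 in QKO at day 1 and -2.39 in QKO at day 2. Casq2 had a value of -1.91 in TKO at day 1, -2.09 in TKO at day 2, -1.98 in QKO at day 1 and -1.91 in QKO at day 2. Trdn was -1.84 in TKO at day 1, -2.18 in TKO at day 2, -1.42 in QKO at day 1 and -1.57 in QKO at day 2. Hrc had a value of -1.49 in TKO at day 1, -1.70 in TKO at day 2, -0.89 in QKO at day 1 and -1.32 in QKO at day 2. Srl was -2.57 in TKO at day 1, -2.54 in TKO at day 2, -2.10 in QKO at day 1 and -2.06 in QKO at day 2.

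Of the 6 triad and counter-ion channel genes, 4 had called negative values. Jph1 was -1.49 in TKO at day 1, -1.52 in TKO at day 2 and -1.26 in QKO at day 2. Mtm1 had a value of -0.83 in QKO at day 2. Tmem38a was -1.62 in TKO at day 1, -1.67 in TKO at day 2, -1.42 in QKO at day 1 and -1.64 in QKO at day 2. Tmem38b had a value of -1.63 in TKO at day 1, -1.65 in TKO at day 2, -1.09 in QKO at day 1 and -1.16 in QKO at day 2.

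Signalling genes went both ways, with called positive values in Calm2, Camk2g and Itpr3. Calm2 was 0.68 in TKO at day 1. Camk2a had a value of -1.36 in TKO at day 2. Camk2g was 0.80 in TKO at day 1, 0.78 in TKO at day 2 and 0.69 in QKO at day 1. Itpr3 had a value of 1.17 in TKO at day 1.

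The 3 genes of store-operated entry had called negative values, though not in every comparison. Orai1 was -1.23 in TKO at day 2 and -1.02 in QKO at day 2. Stim1 had a value of -1.36 in TKO at day 2, -0.88 in QKO at day 1 and -1.47 in QKO at day 2. Stim2 was -1.06 in TKO at day 1 and -1.01 in TKO at day 2.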

How the results depend on the processing

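Of 226 calls over the 38 genes and 19 comparisons, 27 had no value at a mean RPKM of at least 5, since the gene was then not tested. Of the other 199, 100 kept their direction and stayed past the threshold under every alternative, as did 13 of the 27 under those that gave a value, and 1 call changed direction: Camk2g in WT between day 1 and day 0 was 0.04 under median-ratio scaling. Fitting only the libraries compared, which leaves fewer libraries to estimate the spread, gave 7 calls at day 0 in TKO and 7 in QKO, 13 and 6 at day 1, 3 for day 2 against day 1 in WT and 19 in TKO, 10 and 6 for the difference from day 0 at days 1 and 2 in TKO, and 4 and 1 in QKO. Between QKO and TKO at day 0, quantile scaling and removal of the length trend gave 1 each. In TKO at day 1, no filter, the mean of at least 5 RPKM, voom and the replicate block gave 1 each. The mean of at least 5 RPKM gave 1 in QKO at day 1, 5 in WT and 1 in QKO for day 2 against day 1, where a pseudocount of 0.1 and no filter also gave 1 and the length trend 4. Some of these counts were lower and some higher than in the main fit, and the cause was not tested.

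With each library left out in turn, the calls against WT ranged from 17 to 28 in TKO and 20 to 30 in QKO at day 0, 0 to 3 and 0 to 4 at day 1, and 0 to 1 and 0 to 3 at day 2. Between QKO and TKO they ranged from 0 to 5, 0 to 0 and 0 to 1 at days 0, 1 and 2. For day 1 against day 0 they were 27 to 34 in TKO, 27 to 31 in QKO and 32 to 35 in WT, and for day 2 against day 1 they were 0 to 6, 1 to 5 and 4 to 10. Differences from day 0 ranged from 8 to 23 and 12 to 25 in TKO and from 5 to 25 and 10 to 27 in QKO at days 1 and 2.

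Differences between replicates correlated over 0.1 in 10 of 36 pairs of groups (-0.38 to 0.55), and at most 0.24 between groups of the same day. Pairs of days within a genotype were not taken apart, so whether cultures were followed over the days was not tested. With the replicate number as a block common to all genotypes, 219 of the 226 calls held. Precision is limited throughout by 2 libraries a group.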
